A study of Rattus norvegicus with 18 samples.

Results

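The genes described here encode proteins of the extracellular matrix, the receptors and enzymes that act on it, cell adhesion molecules and axon guidance cues and receptors. They were chosen by name, from the prefixes of the collagens (Col and a digit), laminins, fibulins, thrombospondins, integrins, cadherins, protocadherins, ADAM and matrix metalloproteinases, contactins, NCAMs, neurexins, neuroligins, semaphorins, plexins, Robo, Slit, ephrins and their Eph receptors, netrins and Unc5. Of the 1994 genes of the 50 M table for which a symbol was at hand, 40 matched, and Col18a1 and Thbs2 were left out. The other 38 genes all had reads in at least 3 of the 6 libraries, so that none was lost to the filter on low values, and they were 38 of the 17930 genes tested and of the 26172 genes listed. The symbols came from a supplementary list of the study that held genes that overlap no other gene and that have at least 200 intronic reads in enough samples. Of that list a shortened copy was used, with symbols for 1994 genes. The families are therefore not complete: no protocadherin, ephrin, Eph receptor, Robo, Slit or neurexin was among the 38, and genes with few intronic reads or in the part of the list not used here were not seen.

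The samples were L5 dorsal root ganglia (DRG) of male Wistar rats, either naive or taken 7 days after transection of the L5 spinal nerve (SNT). Each library was poly(A) enriched RNA of the ganglia of 4 pooled rats, with 3 libraries per group, and all 6 were run 3 times, at depths named 17 M, 25 M and 50 M for the reads sequenced. The naive animals had no operation, so the effects of the surgery and of the cut nerve cannot be told apart, and pooling hides the spread between single rats. Values are normalized counts, that is, exonic reads divided by the size factor of the library, and those below are of the 50 M runs, in the order of replicates 1, 2 and 3, unless stated otherwise. The 50 M runs held 15000789 to 19031166 exonic reads per library, the 25 M runs 8319112 to 9951906 and the 17 M runs 4968448 to 6154543.

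The DRG holds the cell bodies of sensory neurons, each wrapped by satellite glial cells, with Schwann cells along the axons and fibroblasts, vessels and resident macrophages between them. Collagen fibrils fill the space between cells, and a basement membrane of laminin, type IV collagen and nidogen covers glial cells and vessels. Integrins, which are pairs of an alpha and a beta chain, bind this matrix from the cell surface, and secreted or membrane-bound metalloproteinases cut matrix proteins and surface receptors. Semaphorins, with plexins as their receptors, and netrins are guidance cues that steer axons in development. After a cut of the peripheral nerve, axons regrow along basement membrane and Schwann cells, and leukocytes enter the ganglion. In bulk tissue a change in the number of cells of a type and a change in the RNA that each cell holds cannot be told apart.

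One SNT library stood apart from the others of its group. In SNT replicate 1 the values of 30 of the 33 DE genes of the set (90.9%) lay between those of the naive libraries and those of the other SNT libraries, as did 77.8% of the 10497 DE genes of the whole table. Among the naive libraries, replicate 2 had the lowest value in 20 of the 23 genes that rose (87.0%), against 53.9% of all genes that rose, and SNT replicate 2 had the highest value in 19 of the 23 (82.6%), against 67.3% of all genes that rose. The median absolute log2 fold change of the 33 DE genes was 1.00 with all libraries and 1.16 without SNT replicate 1.

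Of the 38 genes, 23 were higher and 10 lower in SNT than in naive libraries at an FDR of 0.1, and 5 did not pass the test. The DE genes were 86.8% of the set, whereas 58.5% of all genes tested and 71.4% of the 1994 genes with a symbol were DE. The share that rose was 60.5%, beside 29.2% of all genes and 35.2% of the genes with a symbol. The share that fell was 26.3%, beside 29.4% and 36.2%. The median log2 fold change of the set was 0.75, that of all genes tested 0.0095 and that of the genes with a symbol -0.0048. No set test was run on these shares. SNT and naive values did not overlap for 32 genes (84.2%), beside 62.1% of all genes tested and 75.8% of those with a symbol. The 17 genes that were DE with an absolute log2 fold change of at least 1 (44.7%, beside 21.7% and 13.1%) comprised 14 that rose and 3 that fell. All 23 rises were also called without SNT replicate 1, where 9 genes fell and where 32.1% of all genes rose and 32.4% fell, and leaving out any of the 6 libraries in turn left 23 rises and 7 to 10 falls. With libraries scaled to equal totals, which shifted all genes by a median of 0.16 on the log2 scale, 24 genes of the set rose and 6 fell, beside 36.8% and 22.1% of all genes.

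**Figure D1:**
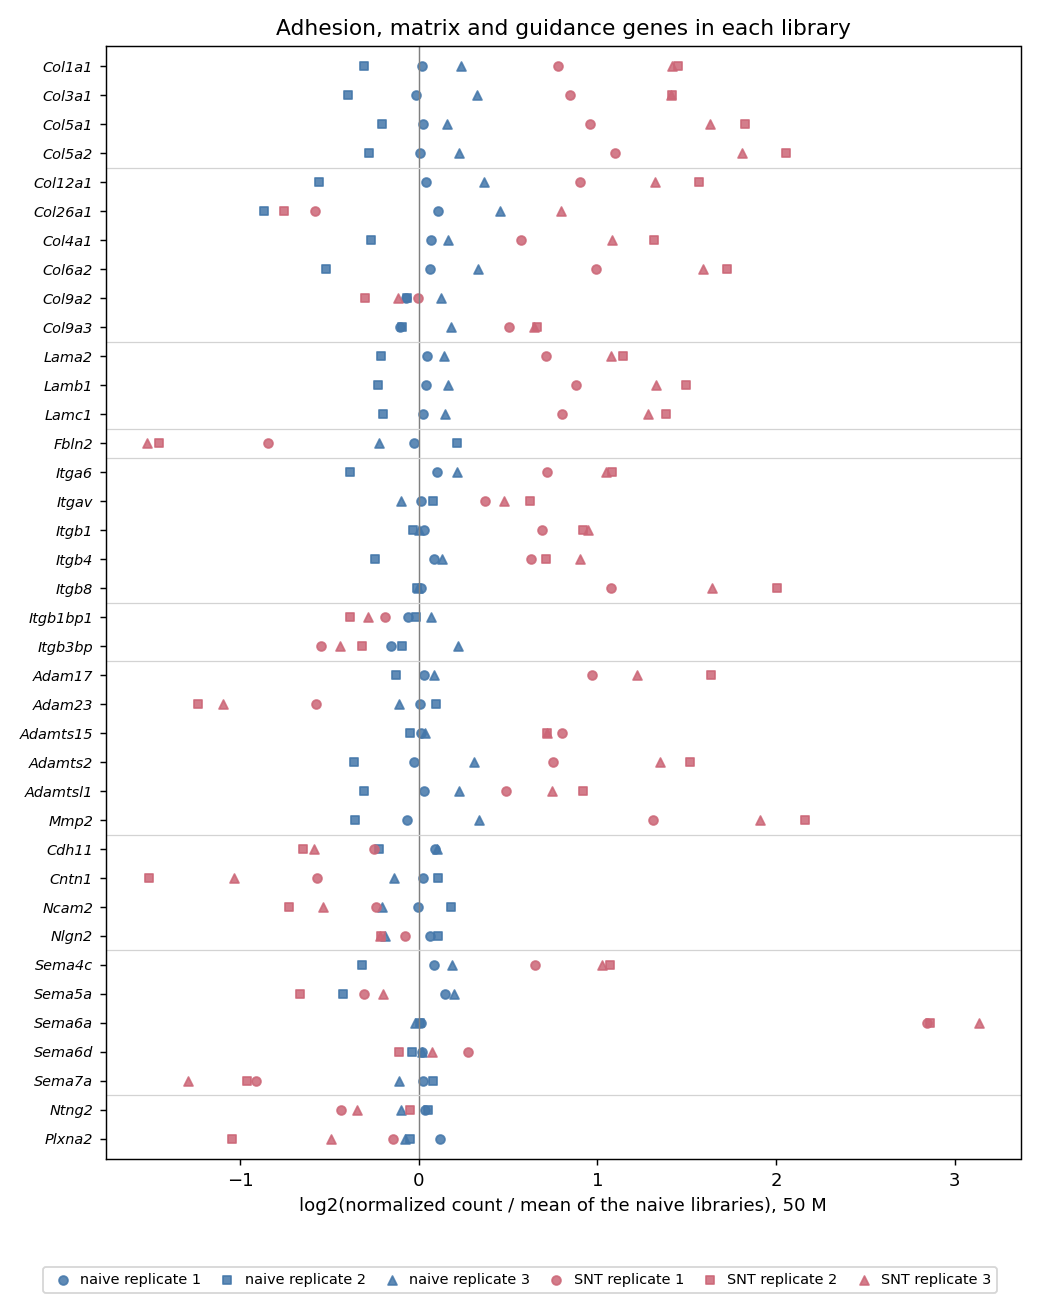
Normalized counts of the 38 genes in each of the 6 libraries at 50 M, plotted as log2 of the value over the mean of the naive libraries, with a horizontal line between families. SNT values lie to the right of all naive values for the 23 genes that rose, and SNT replicate 1 (red circles) lies nearest to the naive values for 22 of them.

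The 4 chains of fibril-forming collagens all rose. Col1a1 (ENSRNOG00000003897), the main chain of type I collagen, had 19932, 15940.0 and 23184 normalized counts in naive and 33863, 53858 and 52562 in SNT libraries. The lowest SNT value was above the highest naive value, and the mean was 2.38-fold higher (log2 fold change 1.23, SE 0.23, adjusted p = 0.00684). Col3a1, the chain of type III collagen that shares fibrils with type I in soft tissue, had 22669.9, 17420.3 and 28701 in naive and 41182, 61292 and 61119.8 in SNT libraries (log2 fold change 1.26, SE 0.25, adjusted p = 0.00742). The ratio of Col3a1 to Col1a1 overlapped between the groups, with a log2 difference of 0.022 (SE 0.06), so a change in this ratio was not detectable beyond the spread between libraries.

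Type V collagen is a minor component of these fibrils that starts their assembly and limits their diameter. Its chain Col5a1 had 1909, 1630.0 and 2093 normalized counts in naive and 3648, 6670.3 and 5814 in SNT libraries (log2 fold change 1.48, SE 0.23, adjusted p = 0.00421). Col5a2 (ENSRNOG00000003736), the partner chain, had 2439, 1999.8 and 2837 in naive and 5193, 10092 and 8499 in SNT libraries (log2 fold change 1.67, SE 0.25, adjusted p = 0.00422). The SNT mean was 2.86-fold the naive mean for Col5a1 and 3.27-fold for Col5a2, and in both SNT replicate 1 was the lowest SNT library. Without that library the log2 fold changes were 1.74 and 1.95. With all libraries, the log2 ratio of Col5a2 to Col5a1 differed between SNT and naive by 0.19 (SE 0.049), without overlap between the groups.

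Among the 6 other collagen chains 4 rose. Col12a1, whose protein sits on the surface of fibrils, had 2344, 1547 and 2938 normalized counts in naive and 4264, 6745 and 5697 in SNT libraries (log2 fold change 1.31, SE 0.26, adjusted p = 0.00787). Col6a2, a chain of the beaded filaments that lie close to cells, had 2112, 1409.9 and 2543 in naive and 4029, 6676 and 6091 in SNT libraries (log2 fold change 1.48, SE 0.26, adjusted p = 0.00613). Col4a1, a chain of the type IV network of basement membranes, had 6941, 5489 and 7411 in naive and 9821, 16485 and 14003 in SNT libraries (log2 fold change 1.00, SE 0.21, adjusted p = 0.00911). None of these 3 genes had an SNT library within the naive range.

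The chains of type IX collagen, which is best known from cartilage, gave different results. Col9a3 had 414, 416 and 504 normalized counts in naive and 631, 704 and 697 in SNT libraries and rose (log2 fold change 0.61, SE 0.11, adjusted p = 0.00561). Col9a2 had 217, 217 and 248 in naive and 227, 185 and 209.5 in SNT libraries and did not pass the test (log2 fold change -0.14, SE 0.12, adjusted p = 0.389). The ratio of Col9a3 to Col9a2 within a library was 1.91, 1.92 and 2.03 in naive and 2.78, 3.81 and 3.32 in SNT, a log2 difference of 0.75 (SE 0.13) with no overlap between the groups. Col26a1 was the gene of the set with the fewest reads, with 15.8, 8.04 and 20.1 in naive and 9.81, 8.69 and 25.5 in SNT libraries, and the groups overlapped (log2 fold change -0.071, SE 0.50, adjusted p = 0.918).

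All 3 laminin chains rose. Lama2, Lamb1 and Lamc1 encode an alpha, a beta and a gamma chain that assemble into the laminin of the Schwann cell basal lamina. Lama2 had 2647, 2214 and 2823 normalized counts in naive and 4191, 5649 and 5404 in SNT libraries (log2 fold change 0.98, SE 0.14, adjusted p = 0.00398). Lamb1 had 5741, 4771 and 6258 in naive and 10276, 15774 and 14016 in SNT libraries (log2 fold change 1.24, SE 0.18, adjusted p = 0.00398), and Lamc1 had 7165, 6137 and 7804 in naive and 12269, 18376 and 17104 in SNT libraries (log2 fold change 1.16, SE 0.18, adjusted p = 0.00417). The 3 chains had the same order of libraries among the SNT samples, lowest in replicate 1 and highest in replicate 2. The log2 ratio of Lama2 to Lamc1 differed between SNT and naive by -0.18 (SE 0.047) and that of Lamb1 to Lamc1 by 0.079 (SE 0.024), both without overlap between the groups.

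Fbln2 (ENSRNOG00000007338) encodes fibulin-2, a secreted glycoprotein that binds laminins and other matrix proteins, and it was the matrix gene of the set that fell. It had 7636, 9023 and 6662 normalized counts in naive and 4339, 2840.4 and 2713 in SNT libraries. Every SNT value was below every naive value (log2 fold change -1.26, SE 0.20, adjusted p = 0.0047), and without SNT replicate 1, the highest of the SNT libraries, the log2 fold change was -1.47.

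The 5 integrin chains all rose. Itgb8 (ENSRNOG00000006569), the beta chain of a receptor that binds latent TGF-beta, had 1805, 1774 and 1777 normalized counts in the naive libraries, which differed little, and 3762, 7168 and 5565 in SNT libraries. The SNT mean was 3.08-fold higher (log2 fold change 1.57, SE 0.22, adjusted p = 0.0036), and the SNT libraries were spread far more than the naive libraries. Itgav, the alpha chain that pairs with it, had 1824, 1909 and 1685 in naive and 2338, 2783 and 2515 in SNT libraries (log2 fold change 0.49, SE 0.091, adjusted p = 0.00646). The ratio of Itgav to Itgb8 was 1.01, 1.08 and 0.948 in naive and 0.622, 0.388 and 0.452 in SNT libraries, a log2 difference of -1.08 (SE 0.21) without overlap. These are ratios of reads per gene, not of molecules, since gene lengths were not used.

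Itgb1, the beta chain shared by most matrix-binding integrins, had 13448, 12908 and 13215 normalized counts in naive and 21319.7, 24948 and 25434 in SNT libraries (log2 fold change 0.85, SE 0.11, adjusted p = 0.00312). Itga6 and Itgb4 encode the chains of a laminin receptor, and Itga6 also pairs with Itgb1. Itga6 had 3183, 2278 and 3443 in naive and 4880.1, 6294 and 6143 in SNT libraries (log2 fold change 0.97, SE 0.18, adjusted p = 0.00636), and Itgb4 had 10359, 8250.4 and 10708 in naive and 15095, 15993 and 18269 in SNT libraries (log2 fold change 0.76, SE 0.14, adjusted p = 0.00625). The log2 ratio of Itga6 to Itgb4 differed by 0.22 (SE 0.11) without overlap, though SNT replicate 1 and naive replicate 3 were nearly equal, and that of Itga6 to Itgb1 overlapped. The log2 ratio of Itgav to Itgb1 also differed, by -0.36 (SE 0.082), without overlap, so the ratio to Itgb8 was not the only one of Itgav that was lower. The pairs of genes whose ratios are given were chosen after their values were seen, and these ratios were not tested.

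**Figure D2:**
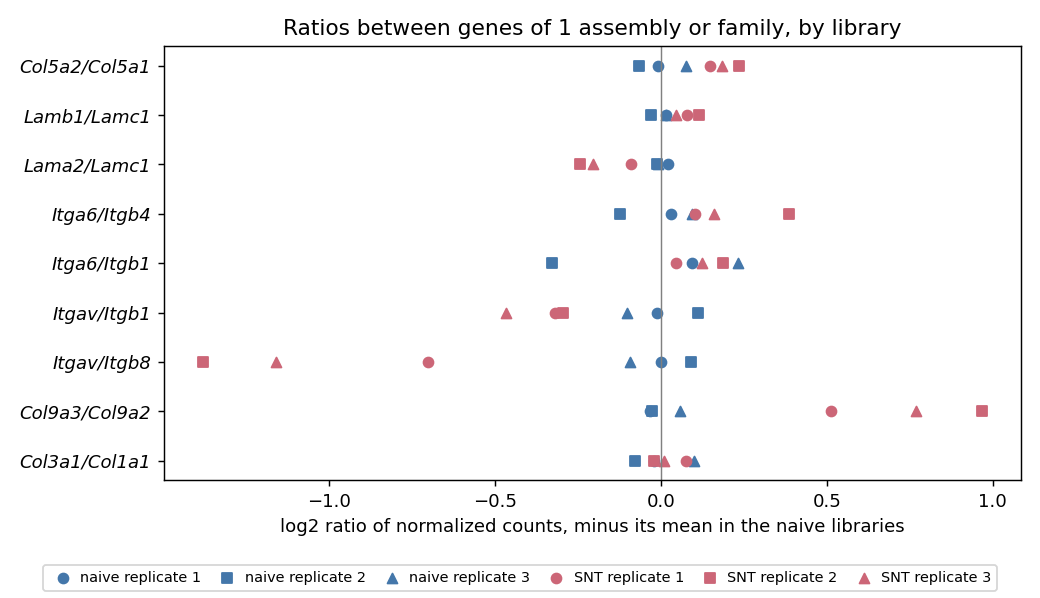
Log2 ratios of the normalized counts of 2 genes within each library at 50 M, minus the mean of that log2 ratio in the naive libraries, for 9 pairs of genes of 1 assembly or family. Itgav/Itgb8 lies lowest in SNT, Col9a3/Col9a2 highest, and Itga6/Itgb1 and Col3a1/Col1a1 overlap between the groups.

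A pair of genes carry an integrin prefix but encode no integrin chain, and both fell. Itgb1bp1 encodes a cytoplasmic protein that binds the tail of the beta 1 chain, and Itgb3bp encodes a protein that was named for binding the beta 3 tail and is also found at centromeres. Itgb1bp1 had 1453, 1499 and 1584 normalized counts in naive and 1329, 1158 and 1243 in SNT libraries (log2 fold change -0.28, SE 0.079, adjusted p = 0.0234). Itgb3bp had 219, 228 and 283 in naive and 167, 196 and 179 in SNT libraries (log2 fold change -0.42, SE 0.14, adjusted p = 0.0396) but was not DE at 17 M (adjusted p = 0.195). Neither was DE when libraries were scaled to equal totals (adjusted p = 0.228 and 0.184).

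Among the 6 proteases and related proteins 5 rose and 1 fell. Mmp2 (ENSRNOG00000016695), the secreted gelatinase A, had 1000.4, 820.0 and 1324 normalized counts in naive and 2602, 4695 and 3939.7 in SNT libraries, a mean 3.57-fold higher (log2 fold change 1.82, SE 0.25, adjusted p = 0.00369). Adam17, a membrane-bound sheddase that releases TNF and ligands of the EGF receptor, had 1826, 1640.0 and 1903 in naive and 3502, 5569 and 4179 in SNT libraries (log2 fold change 1.28, SE 0.17, adjusted p = 0.00326). Adamts2, which removes the amino-terminal propeptide of fibrillar procollagens, had 455, 359.8 and 574 in naive and 780.0, 1325 and 1179 in SNT libraries (log2 fold change 1.23, SE 0.24, adjusted p = 0.00742). All 3 were highest in SNT replicate 2 and lowest, among the SNT libraries, in replicate 1.

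Adamts15, a secreted protease that cuts proteoglycans such as versican, had 754, 724 and 765 normalized counts in naive and 1305, 1231 and 1229 in SNT libraries. It was the gene that rose for which SNT replicate 1 was the highest SNT library, and its spread within groups was small (log2 fold change 0.75, SE 0.067, adjusted p = 0.00148). Adamtsl1, which resembles the ADAMTS family but has no protease domain, had 350.3, 277 and 401 in naive and 481, 648 and 575 in SNT libraries (log2 fold change 0.73, SE 0.17, adjusted p = 0.0121). Adam23, a member without protease activity that is anchored in the neuronal membrane and binds LGI proteins, fell: it had 9769.5, 10425 and 9015 in naive and 6543, 4133 and 4548 in SNT libraries (log2 fold change -0.97, SE 0.18, adjusted p = 0.0063).

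Of the 4 cell-cell adhesion molecules 3 fell and none rose. Cntn1 (ENSRNOG00000004438), contactin-1, an immunoglobulin protein anchored on axons, had 12722, 13485 and 11374 normalized counts in naive and 8439.6, 4398 and 6109 in SNT libraries (log2 fold change -1.03, SE 0.23, adjusted p = 0.0104). Ncam2, a neural cell adhesion molecule, had 784, 888 and 682 in naive and 664, 474 and 542 in SNT libraries (log2 fold change -0.49, SE 0.15, adjusted p = 0.0333), and Cdh11, a cadherin of mesenchymal and some neural cells, had 2859, 2299 and 2877 in naive and 2255, 1712 and 1783 in SNT libraries (log2 fold change -0.49, SE 0.14, adjusted p = 0.0252). In all 3 the highest SNT library was replicate 1, and for Ncam2 and Cdh11 that library lay just below the lowest naive library. Nlgn2, a postsynaptic protein of inhibitory synapses, had 1275, 1313 and 1068 in naive and 1154, 1055 and 1051 in SNT libraries and did not pass the test (log2 fold change -0.16, SE 0.099, adjusted p = 0.217). Without naive replicate 2 the adjusted p of Ncam2 was 0.107.

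The semaphorins divided, with 2 genes that rose, 1 that fell and 2 that did not pass the test. Sema6a (ENSRNOG00000004033), a transmembrane semaphorin, had 495, 493 and 485 normalized counts in naive and 3532, 3571 and 4317 in SNT libraries. Its SNT mean was 7.75-fold that of the naive libraries, the largest fold change of the 38 genes, and the libraries within each group differed little (log2 fold change 2.95, SE 0.093, adjusted p = 4.35e-05). In contrast to most genes that rose, SNT replicate 1 and SNT replicate 2 were nearly equal for Sema6a, and without replicate 1 the log2 fold change was 3.00. Sema4c, also a transmembrane protein, had 1194, 903 and 1282 in naive and 1766, 2365 and 2296 in SNT libraries (log2 fold change 0.93, SE 0.17, adjusted p = 0.00614).

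Sema7a (ENSRNOG00000007687), a semaphorin with a GPI anchor that binds integrins of the beta 1 class, had 4241, 4419 and 3863 normalized counts in naive and 2220.3, 2145 and 1705 in SNT libraries. All SNT values were below all naive values, and the mean fell to 0.485 of the naive mean (log2 fold change -1.05, SE 0.12, adjusted p = 0.00236). Sema5a had 8686, 5833 and 8983 in naive and 6348, 4937 and 6832 in SNT libraries, with groups that overlapped (log2 fold change -0.36, SE 0.20, adjusted p = 0.174), and passed the test without naive replicate 2 (adjusted p = 0.0428). Sema6d, of the same subclass as Sema6a, had 2362, 2272 and 2359 in naive and 2821, 2157 and 2459 in SNT libraries (log2 fold change 0.08, SE 0.11, adjusted p = 0.559). The difference between the log2 fold changes of Sema6a and Sema6d was not tested.

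Plxna2 encodes plexin-A2, a receptor of Sema6a and other semaphorins. It had 5089, 4545 and 4446 normalized counts in naive and 4251, 2273 and 3336 in SNT libraries, with a large spread among the SNT libraries (log2 fold change -0.56, SE 0.22, adjusted p = 0.0686). Leaving out SNT replicate 3 or any 1 naive library gave an adjusted p of 0.115 to 0.178, and leaving out SNT replicate 1 gave 0.00435. Ntng2, netrin-G2, a membrane-anchored relative of the netrins, had 1589, 1608 and 1448 in naive and 1147, 1497 and 1219 in SNT libraries (log2 fold change -0.27, SE 0.11, adjusted p = 0.0827). It was the DE gene of the set whose groups overlapped, it was not DE at 25 M (adjusted p = 0.245), and without SNT replicate 1 its adjusted p was 0.142.

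**Figure D3:**
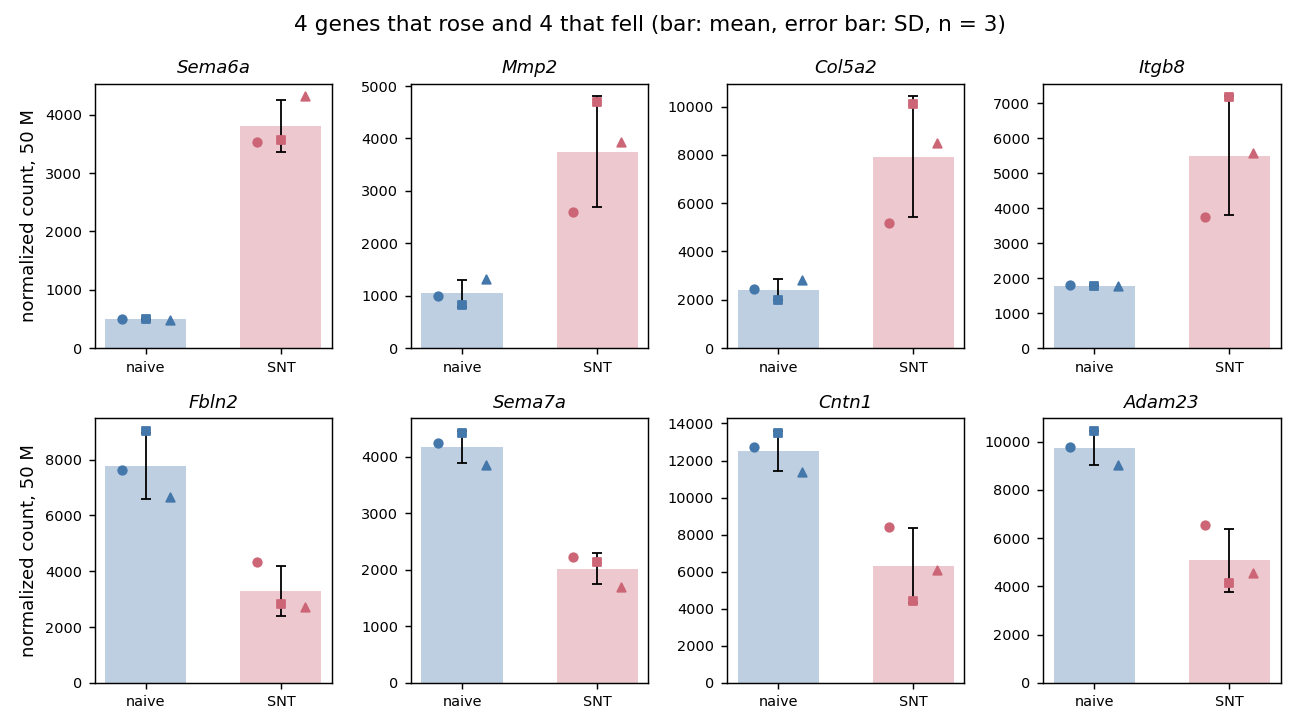
Normalized counts at 50 M of 4 genes that rose and 4 that fell, with a bar for the mean, an error bar for the SD (n = 3) and a point for each library (circle, square and triangle for replicates 1, 2 and 3). The naive and SNT points do not overlap in any panel, and the SNT points of Mmp2, Col5a2 and Itgb8 are spread more widely than those of Sema6a.

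The shallower runs of the same libraries gave nearly the same calls. At 25 M, 23 genes were higher and 9 lower, where 55.9% of all genes tested were DE, 27.7% higher and 28.3% lower. At 17 M, 23 were also higher and 9 lower, where 52.3% of all genes were DE, 26.0% higher and 26.4% lower. In all, 31 genes were DE in the same direction at all 3 depths, and the 2 exceptions among the 33 were Itgb3bp and Ntng2. The share of all genes tested that was DE at all 3 depths was not counted. Among the 33 genes the log2 fold change at 50 M differed from that at 25 M by at most 0.138 and from that at 17 M by at most 0.136. The runs are technical repeats of the same libraries, so this is the error of sequencing and not of animals. Col26a1, with few reads, moved from -0.33 (SE 0.35) at 17 M to 0.60 (SE 0.67) at 25 M and did not pass the test at either depth.

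**Figure D4:**
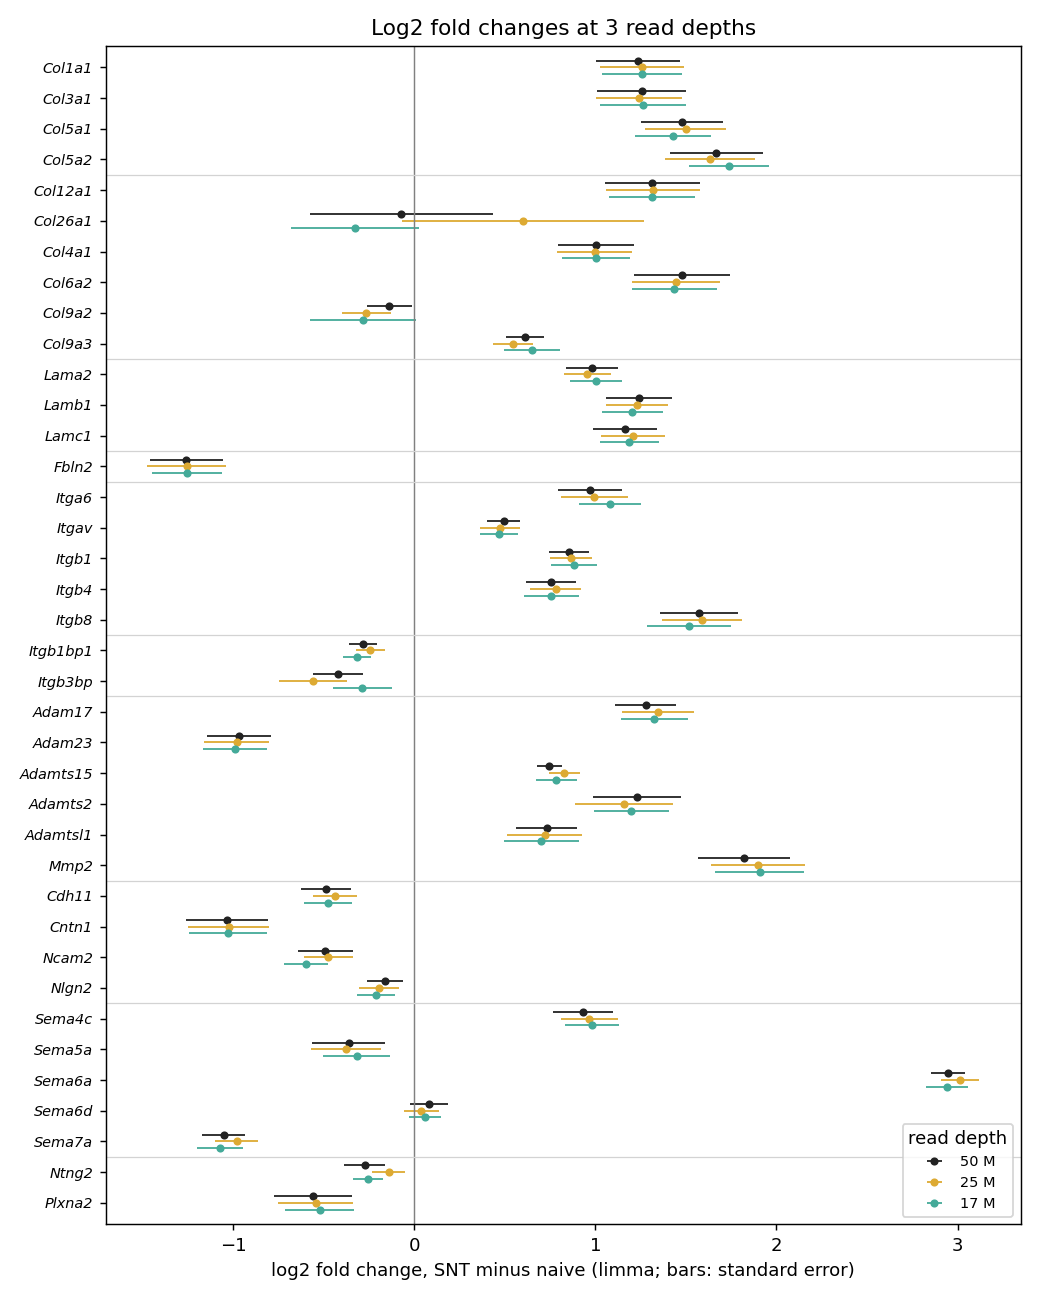
Log2 fold change (SNT minus naive, limma) of each of the 38 genes at 50 M, 25 M and 17 M, with bars for the standard error. The depths give nearly the same value for the 33 DE genes, from -1.26 for Fbln2 to 2.95 for Sema6a at 50 M, whereas Col26a1 changes sign between depths.

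RefSeq promoter sequences of build GRCr8, a later build than the one the reads were aligned to, were matched by symbol to 26 of the 38 genes. In the 250 bases before the start, the AP-1 motif (TGACTCA) and the cAMP response element (TGACGTCA), searched on both strands, were found in none of these 26 genes. They occurred in 4.42% and 1.78% of all 27457 rat genes with such a promoter (4.05% and 1.59% of 33469 promoters), so that 0 of 26 is close to these low shares. The GC box (GGGCGG, both strands) was found in 18 of the 26 genes (69.2%) and in 33.5% of all 27457 genes, expressed in the DRG or not (30.5% of promoters). It was present in 12 of 14 matched genes that rose, 4 of 8 that fell and 2 of 4 that did not pass the test, and it overlaps neither of the other motifs. A match is only a run of letters, and a missing match says only that these letters were not in the window. The promoters of the integrin and the collagen chain with the largest rise, and of the matrix gene that fell, are shown 5′ to 3′ on the strand of the gene, up to the base before the start, with GC boxes in capitals. They lie at chr6:146351246-146351495, reverse strand, for Itgb8, at chr9:55090152-55090401, reverse strand, for Col5a2, and at chr4:125261409-125261658, forward strand, for Fbln2.
Itgb8: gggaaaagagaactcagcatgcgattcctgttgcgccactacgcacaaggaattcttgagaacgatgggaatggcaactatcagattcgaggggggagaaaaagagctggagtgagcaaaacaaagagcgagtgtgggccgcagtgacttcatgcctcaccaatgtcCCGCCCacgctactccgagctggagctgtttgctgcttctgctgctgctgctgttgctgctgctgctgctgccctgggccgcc
Col5a2: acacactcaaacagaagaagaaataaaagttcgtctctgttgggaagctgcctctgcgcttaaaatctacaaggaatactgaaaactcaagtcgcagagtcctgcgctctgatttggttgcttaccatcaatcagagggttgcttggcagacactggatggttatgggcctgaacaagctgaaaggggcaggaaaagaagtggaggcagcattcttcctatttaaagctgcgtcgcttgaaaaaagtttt
Fbln2: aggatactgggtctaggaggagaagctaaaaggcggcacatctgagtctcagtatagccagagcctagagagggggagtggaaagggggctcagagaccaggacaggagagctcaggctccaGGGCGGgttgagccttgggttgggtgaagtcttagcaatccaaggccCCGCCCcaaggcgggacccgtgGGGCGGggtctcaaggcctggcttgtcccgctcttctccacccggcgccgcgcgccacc
The Itgb8 window held 1 GC box, the Fbln2 window held 3, and the Col5a2 window held none.

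Other genes of the same pathways were taken from lists by their known roles. The counts below stand beside 29.2% of all genes tested that rose and 29.4% that fell, and 35.2% and 36.2% of the genes with a symbol, from which the lists were drawn. Of 13 other genes of the secreted matrix and basement membrane, 11 rose and 1 fell, or 2 without SNT replicate 1, with a median log2 fold change of 0.84. The largest rises were those of Tgfbi, a secreted protein that binds collagens and integrins, from a mean of 2172 to 8223 normalized counts (log2 fold change 1.93, SE 0.26, adjusted p = 0.00329), and of Nid2, the basement membrane linker nidogen-2, from a mean of 1400.0 to 5321 (log2 fold change 1.88, SE 0.25, adjusted p = 0.00325). Fstl1, which encodes a secreted glycoprotein, was the gene that fell, from a mean of 12633 to 3642 (log2 fold change -1.91, SE 0.31, adjusted p = 0.00496). Of 5 genes of collagen folding and processing 4 rose and none fell, with a median of 0.83. They were led by Bmp1, the protease that removes the carboxy-terminal propeptide of fibrillar procollagens, from a mean of 912 to 3342 (log2 fold change 1.84, SE 0.22, adjusted p = 0.00267), and Serpinh1, a chaperone of procollagen in the endoplasmic reticulum, from a mean of 5819 to 11981 (log2 fold change 1.02, SE 0.22, adjusted p = 0.00966).

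Of 16 genes of the complexes that link integrins to the cytoskeleton and of their co-receptors, 11 rose and 4 fell (median 0.56). Fblim1, which encodes migfilin, an adaptor that binds filamin at adhesions, rose from a mean of 28.2 to 192 normalized counts (log2 fold change 2.62, SE 0.35, adjusted p = 0.00349), and Cd44, the hyaluronan receptor, rose from a mean of 3296 to 10228 (log2 fold change 1.63, SE 0.13, adjusted p = 0.00101). Parvb, beta-parvin, fell from a mean of 1720.1 to 989.7 (log2 fold change -0.81, SE 0.15, adjusted p = 0.00646), and Tns1, tensin-1, fell from a mean of 5519 to 3303 (log2 fold change -0.75, SE 0.12, adjusted p = 0.00427). Among 21 genes of guidance receptors and of the signalling below them, 13 rose and 6 fell, or 3 with equal totals (median 0.39), so that the share that fell was near the background. Rnd3, an atypical small GTPase that acts on the actin cytoskeleton, rose (log2 fold change 1.32, SE 0.22, adjusted p = 0.00522), as did Srgap2, a Rac regulator of the Slit-Robo pathway (log2 fold change 1.14, SE 0.18, adjusted p = 0.00446). Limk1, the kinase that inactivates cofilin, fell (log2 fold change -1.36, SE 0.23, adjusted p = 0.00515), and so did Srgap3, a paralog of Srgap2 (log2 fold change -1.36, SE 0.31, adjusted p = 0.0114). Of 11 other cell-cell adhesion molecules 3 rose, or 6 with equal totals, and 5 fell (median 0.029), the largest rises being those of Cxadr, a receptor at cell junctions (log2 fold change 1.83, SE 0.18, adjusted p = 0.00173), and Kirrel, a relative of nephrin (log2 fold change 1.24, SE 0.17, adjusted p = 0.00343). The largest falls were those of Clmp, a junction protein (log2 fold change -0.78, SE 0.15, adjusted p = 0.00764), and Nrcam, an immunoglobulin protein of axons (log2 fold change -0.76, SE 0.15, adjusted p = 0.00741).

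Markers of the cell types of the ganglion were counted in the same way, beside the same shares of all genes (29.2% higher and 29.4% lower, or 35.2% and 36.2% of the genes with a symbol). The genes named are those with the highest mean normalized count, which also depends on gene length. Of 7 fibroblast and mesenchymal markers 6 rose and none fell (median 1.19). Their summed level ran from 15081 to 25583 in the naive and 35371 to 52592 in the SNT libraries, and the genes with the highest mean were Dcn (log2 fold change 1.19, SE 0.24, adjusted p = 0.00792) and Mgp (log2 fold change 1.36, SE 0.31, adjusted p = 0.0119), which encode matrix proteins and also stand in the matrix list. Dcn, with a mean of 15467 in the naive and 35157 in the SNT libraries, made up most of the sum, which is thus largely matrix RNA. Bnc2, which did not pass the test, was highest in SNT replicate 1 (437, 290 and 363 in SNT libraries). The sum was lowest in naive replicate 2 and, among SNT libraries, in replicate 1. So was every collagen and laminin chain that rose except Col9a3. The leukocyte sum was lowest in these same libraries, and the glial sum was lowest in naive replicate 2 and SNT replicate 2. Naive replicate 2 was also lowest in 53.9% of all genes that rose, and SNT replicate 1 was intermediate in 77.8% of all DE genes. The shared order is thus not particular to fibroblast or matrix genes. Of 6 endothelial and mural markers 4 rose and 2 fell, though neither fall was called with equal totals, without naive replicate 3 or without SNT replicate 3, with a sum from 9337 to 9639 in the naive and 12818 to 15629 in the SNT libraries, led by Mcam (log2 fold change 0.69, SE 0.11, adjusted p = 0.00424), which is also in the cell-cell list, and Gpr124 (log2 fold change 0.90, SE 0.15, adjusted p = 0.00484). Of 9 macrophage and other leukocyte markers 7 rose, 1 fell (Slc7a7) and 1 did not pass the test (Cd48). Their sum ran from 14265 to 14700.2 in the naive and 27571 to 51609 in the SNT libraries. The highest means were those of Lcp1 (log2 fold change 1.11, SE 0.097, adjusted p = 0.00134) and Gpnmb (log2 fold change 4.75, SE 0.46, adjusted p = 0.00177). Gpnmb alone, from a mean of 357 to 11403 and with 21283 in SNT replicate 2, made up a large part of the rise of the sum. The part of these cells in the rise of the collagens, laminins, integrins and proteases was not tested.

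Of 14 sensory neuron markers none rose and 11 fell (median -0.82), with a sum from 456706 to 526007 in the naive and 179242 to 326829 in the SNT libraries. The highest means were those of Nefh, a heavy neurofilament (log2 fold change -2.02, SE 0.41, adjusted p = 0.00817), and Stmn2, a stathmin of growing axons, which did not pass the test (log2 fold change 0.16, SE 0.18, adjusted p = 0.476). Nefh alone, from a mean of 203041 to 56085, made up a large part of the fall of the sum. Elavl3 (adjusted p = 0.193) and Prph (adjusted p = 0.203) did not pass the test either. SNT replicate 1 had the highest sum of the SNT libraries. It was also the highest SNT library for 8 of the 10 genes of the set that fell, all but Itgb3bp and Ntng2. This library had intermediate values for 77.8% of the 10497 DE genes of the whole table, so the shared order is not particular to neuronal genes. Of 9 Schwann and satellite glial markers 3 rose and 1 fell, or 2 without naive replicate 2, with a sum from 175234 to 280789 in the naive and 192383 to 229075 in the SNT libraries, so that the groups overlapped. The highest means were those of the myelin genes Pmp22 (log2 fold change -0.30, SE 0.27, adjusted p = 0.389) and Mbp (log2 fold change -0.28, SE 0.27, adjusted p = 0.438), neither of which passed the test. No gene of any of these lists was at 0 in any library. The part of the neuronal and glial markers in the fall of the adhesion genes and of Sema7a was not tested.

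**Figure D5:**
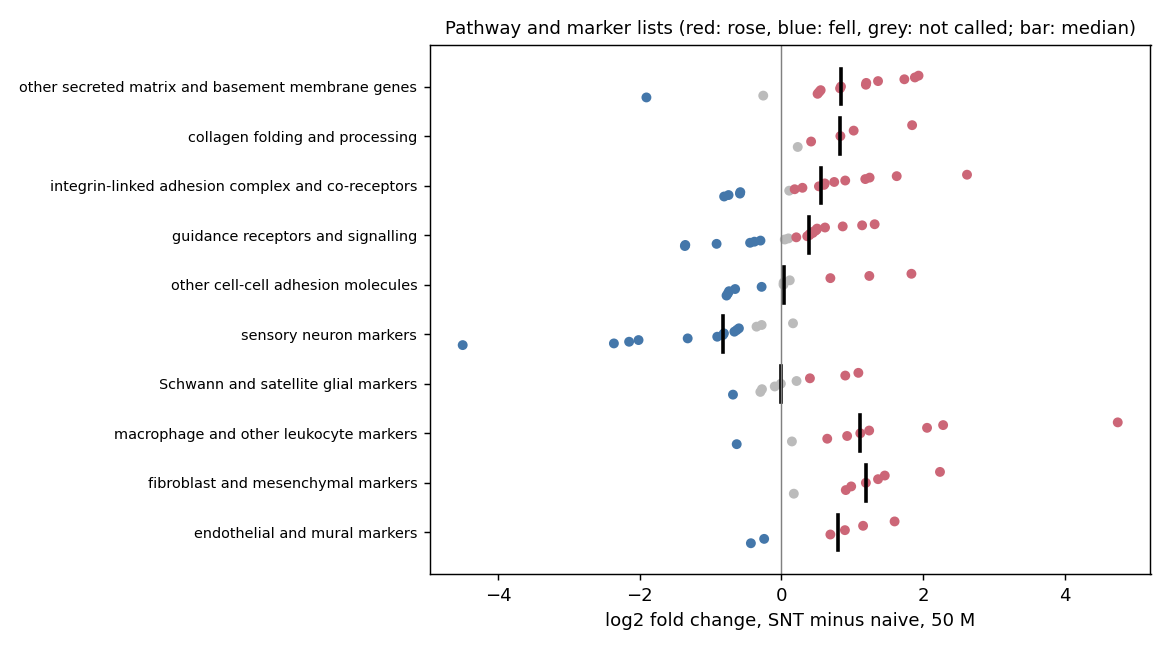
Log2 fold changes (SNT minus naive, 50 M) of the genes of 5 pathway and 5 marker lists, in red for genes that rose, blue for genes that fell and grey for genes that did not pass the test, with a bar at the median of each list. The medians of the fibroblast list (1.19) and the leukocyte list (1.11) are the highest and that of the neuron list (-0.82) is the lowest.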

How the data were processed

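Poly(A) enriched libraries of L5 DRG were sequenced by the authors in 34-base reads, which they mapped with Bowtie to the Rn5 build, allowing 1 mismatch and discarding reads that mapped to more than 1 place. Reads on the exons of Ensembl genes were then counted without regard to strand, so that antisense reads cannot be told apart and reads of near-identical paralogs are lost in part. The signal values that the authors deposited, 1 table per depth, are normalized counts: read counts divided by the DESeq size factor of the library. Whole reads were recovered from them (100% of values were whole multiples of the step of their column, within 1e-06 reads). All 18 columns were used.

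SNT and naive libraries were compared within each depth in limma 3.58.1 (R 4.3.3), using log2 of the normalized count plus 1 and eBayes with a variance trend. Tests were two-sided, with Benjamini-Hochberg adjustment over all genes that had reads in 3 or more of the 6 libraries. The FDR threshold was 0.1, n = 3 libraries per group, and no covariate was used. This scale understates the change of low genes. A fold is the ratio of mean normalized counts. The fit was tested on simulated counts. With 3 against 3 libraries an exact permutation test cannot go below p = 0.1.

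The alternatives tried were other pseudocounts (0.5 and 5), filters (none, or a mean of at least 10 normalized counts) and an FDR of 0.05, no variance trend, libraries of equal total, a replicate block, leaving out each library, the 3 runs summed, and, on recovered reads, edgeR 4.0.16 (TMM or DESeq2 size factors) and DESeq2 1.42.0. The genes and lists were chosen with earlier results of these data known. All genes of the set are named, with values for each library; of each pathway list the 2 largest rises and 2 largest falls among DE genes are named, and of each marker list the 2 genes with the highest mean. Symbols came from a shortened copy of a supplementary table of the study. No lengths of this build were used, so the mean served only to pick the markers to name. Promoters are those of RefSeq, and protein sequences were not used here. A gene of the glial and cell-cell lists is not reported here.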

Additional observations from a re-analysis of the deposited data

How the results depend on the processing

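All 23 rises, and 28 of the 33 DE genes in all, were called under each of the 18 alternatives at 50 M. The 5 exceptions were falls: Itgb1bp1, Itgb3bp, Ncam2, Ntng2 and Plxna2. The share of all genes tested that was called under every alternative was not counted, so these counts have no background beside them. With libraries scaled to equal totals 6 genes fell instead of 10 and 24 rose, with Sema6d added (adjusted p = 0.0744). Values that turned sign were all of genes that did not pass the test. With equal totals, Col26a1 came to 0.079, Col9a2 to 0.024 and Nlgn2 to 0.00062 on the log2 scale. Col26a1 was 0.026 with edgeR and TMM, 0.011 with edgeR and DESeq2 size factors, 0.0051 with DESeq2 and 0.0477 with the runs summed. Leaving out 1 library, it ranged from -0.53 (without SNT replicate 3) to 0.20 (without SNT replicate 2), with 0.12 without SNT replicate 1, 0.19 without naive replicate 3 and 0.024 without naive replicate 1, while Sema6d ranged from -0.017 without SNT replicate 1 to 0.18 without SNT replicate 2. Leaving out 1 library gave 23 rises at every depth. The falls then numbered 7 to 10 (50 M), 6 to 11 (25 M) and 7 to 11 (17 M). The cause of these shifts was not tested. Deviations from the group means of same-numbered SNT and naive libraries had correlations of 0.045, -0.304 and 0.145. Those of libraries with unlike numbers ran from -0.344 to 0.323. The main fit did not pair libraries by number, and these correlations cannot show whether same-numbered libraries shared a batch. A replicate block gave 23 rises and 11 falls at 50 M, Sema5a being added (adjusted p = 0.0465). Col26a1 had means of 14.7 and 14.7 normalized counts with SDs of 6.13 and 9.39, and the parts of depth and of spread between libraries in its result were not tested.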
